A study of Mus musculus with 3 samples.

Results

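Interferon-stimulated genes are the genes that cells switch on when they sense interferons. A set of 32 of them, taken by gene symbol from the 27998 genes of the table, was followed across the cell types of the mouse brain that carry the surface protein Cd11b. All 32 were found, and all had at least 20 unique molecular identifiers (UMIs, 1 for each captured messenger RNA) over all cells. The cells came from brains without the cerebellum of C57BL6J females aged 5 months, were sorted with an antibody to Cd11b and were sequenced from the 3′ ends of their transcripts (10x Genomics). The labels describe 3 groups with 1 library each. The Ctrl group was untreated (1 animal). The D0 group had eaten PLX5622 at 1200 mg/kg of diet for 14 days (2 animals, pooled), and the D2 group had the same 14 days and then 2 days of control diet (1 animal). PLX5622 inhibits Csf1r, a receptor that microglia need to survive.

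No label used here ties the numbers 1, 2 and 3 at the ends of the cell barcodes to Ctrl, D0 or D2. The barcodes are therefore called libraries 1, 2 and 3, the groups were not compared, and no test was run, since each library is 1 sample. Of the 2135 cells used, library 1 gave 1261, library 2 gave 594 and library 3 gave 280. Before cells were removed, the libraries held 1263, 599 and 287 barcodes with totals of 6410990, 4022293 and 2831118 UMIs, and they shared no barcode. The labels call the cells microglia, yet clusters with microglia markers held 1087, 64 and 2 cells of libraries 1, 2 and 3. The others were named from their markers, as border-macrophage-like (79 cells, library 1 alone), monocyte-like (7, 34 and 41), non-classical-monocyte-like (6, 23 and 42), dendritic-like (44, 204 and 69), migratory-dendritic-like (2, 55 and 3), neutrophil-like (14, 86 and 29) and NK-like (13, 79 and 33). A cycling cluster led by Birc5, Top2a and Mki67 (1, 22 and 56 cells) stayed unnamed, since markers of several classes passed and none led it. For the border-macrophage-like cluster, cell type and library cannot be told apart. Values are given for classes with at least 20 cells of a library.

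Type I interferons bind the receptor pair Ifnar1 and Ifnar2, whose kinases Jak1 and Tyk2 act on Stat2. A complex that holds Stat2 and Irf9 then enters the nucleus and binds the interferon-stimulated response element, a DNA element in which the letters GAAA recur. The products sense foreign nucleic acid (Ifih1, Dhx58, Zbp1), hinder viral entry, translation or release (Ifitm3, Ifit1, Bst2), modify proteins (Isg15), attract lymphocytes (Cxcl10) and feed back on the pathway (Irf7, Usp18). Microglia of healthy adult brain are known to hold most of these genes low and to raise them in viral infection.

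The promoters below are shown because they hold a motif with letters that the factors of this pathway are known to read. That of Ifitm3 is shown because it lacks this motif in the stretch searched. Other forms of the element and other stretches were not searched. RefSeq promoters of the GRCm38.p6 build were matched by symbol for 24 of the 32 genes. The motif searched was GAAA, then any 2 bases, then GAAA again, on either strand in the 250 bases before each start, with overlapping matches counted. It occurred for 12 of the 24 genes (50%) and for 936 of all 27025 genes with a promoter (3.46%). Capitals mark the matches, and each sequence runs 5′ to 3′ on the strand of its gene. A match describes letters only, since binding was not measured. Isg15, a ubiquitin-like protein modifier (150 to 1 bases before the start, chr4:156200819-156200968, minus strand), had 3 overlapping matches.
Isg15: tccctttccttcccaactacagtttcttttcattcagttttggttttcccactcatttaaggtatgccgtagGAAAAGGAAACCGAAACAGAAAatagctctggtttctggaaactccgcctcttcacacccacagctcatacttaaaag
Ifit1, which binds foreign RNA (140 to 21 bases before the start, chr19:34640749-34640868, plus strand), had 2.
Ifit1: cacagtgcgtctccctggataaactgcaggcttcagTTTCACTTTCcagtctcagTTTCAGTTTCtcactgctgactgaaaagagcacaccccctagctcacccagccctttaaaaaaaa
Ifit3, a partner of Ifit1 (170 to 21 bases before the start, chr19:34583359-34583508, plus strand), had 2.
Ifit3: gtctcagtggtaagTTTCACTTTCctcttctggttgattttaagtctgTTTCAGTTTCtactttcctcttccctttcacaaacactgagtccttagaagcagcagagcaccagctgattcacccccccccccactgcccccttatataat
Cxcl10, a chemokine for T and NK cells (250 to 151 bases before the start, chr5:92349040-92349139, minus strand), had 1.
Cxcl10: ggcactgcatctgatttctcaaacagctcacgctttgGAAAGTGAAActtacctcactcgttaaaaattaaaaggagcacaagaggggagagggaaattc
Bst2, or tetherin, which holds budding virus on the membrane (150 to 1 bases before the start, chr8:71537473-71537622, minus strand), had 2 overlapping matches.
Bst2: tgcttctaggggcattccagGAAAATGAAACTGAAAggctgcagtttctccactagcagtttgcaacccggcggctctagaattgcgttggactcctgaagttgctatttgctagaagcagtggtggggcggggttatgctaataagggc
Ifitm3, which hinders the fusion of virus with endosomes (180 to 31 bases before the start, chr7:141010775-141010924, minus strand), had none in the 250 bases.
Ifitm3: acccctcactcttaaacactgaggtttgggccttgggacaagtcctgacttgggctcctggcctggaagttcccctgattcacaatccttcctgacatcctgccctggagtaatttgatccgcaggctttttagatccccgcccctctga

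Microglia-like cells of library 1 had the lowest summed level and monocyte-like cells the highest. The 32 genes together had 591 CPM (569.8 to 613) in the former, where CPM is the number of UMIs for every 1000000 UMIs of the same cells and the bracket is the 95% interval. Such intervals cover counting error only and hold nothing of the spread between animals or between the cells of a class. Monocyte-like cells had 16458 CPM (15841 to 17093) in library 2 and, in library 3, 13298 CPM (12937 to 13667). Between these ends lay non-classical-monocyte-like cells (9581 and 9710.4 CPM in libraries 2 and 3), dendritic-like cells (3859.7, 6432 and 7139 CPM in libraries 1, 2 and 3) and neutrophil-like cells (6165 and 5618 CPM in libraries 2 and 3). The cycling cells stood at 3476 and 5008 CPM in the same libraries, migratory-dendritic-like cells of library 2 at 4073 CPM (3883 to 4269) and border-macrophage-like cells of library 1 at 2703 CPM (2592 to 2817). NK-like cells were low as well, with 1372 CPM (1234 to 1522) in library 2 and, in library 3, 1428 CPM (1214 to 1669). Their intervals overlapped that of the microglia-like cells of library 2, at 1353 CPM (1225 to 1490.0). Over all cells of a library, whatever their class, the level was 1264, 5592 and 6823 CPM in libraries 1, 2 and 3. The class levels depend on the naming: with the interferon genes kept in the clustering, the monocyte-like cells of library 2 had 8531 CPM over a wider class of 69 cells and those of library 3 had 7562 CPM over 111 cells. Both lie below the levels of non-classical-monocyte-like cells given above, which were not recomputed under that setting. With each cell named by its own markers, the microglia-like cells of libraries 1 and 2 had 928 and 2339 CPM.

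**Figure D1:**
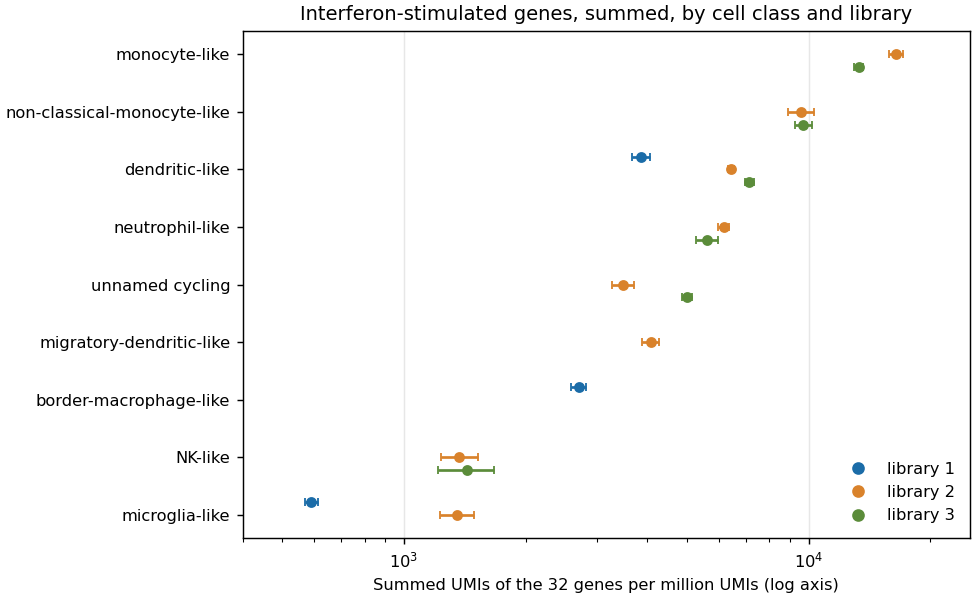
Summed level of the 32 interferon-stimulated genes (CPM, log axis) in each cell class with at least 20 cells of a library; points are libraries 1 to 3 and bars are exact Poisson 95% intervals. Microglia-like cells of library 1 are lowest at 591 CPM, and monocyte-like cells of libraries 2 and 3 are highest at 16458 and 13298 CPM.

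Few genes carried most of the sum. Ifitm3 took 32.7% of all UMIs of the set, Ifi27l2a 16.1%, Ifitm2 11.3% and Bst2 6.74%. The make-up differed between classes: Ifitm3 gave 46.3% of the set in monocyte-like cells of library 2 and 6.35% in microglia-like cells of library 1, where Bst2 gave 27%. Without Ifitm3 these stood at 8839 and 554 CPM. In microglia-like cells of library 2, Ifitm3 gave 12.7% and Bst2 18%. Of the 32 genes, 20 had their highest level in monocyte-like cells, 4 in dendritic-like, 2 in non-classical-monocyte-like and 2 in migratory-dendritic-like cells. The other 4 were Bst2 (border-macrophage-like), Ifi47 (NK-like), Samd9l (neutrophil-like) and Cxcl10 (the cycling cells). These counts take levels without their intervals, and some rest on few UMIs. The highest levels of Stat2 (30.7 CPM, 9.96 to 71.6) and Irf9 (69.4 CPM, 22.5 to 162) came from 5 UMIs each. That of Parp14 (61.3 CPM, 29.4 to 113) came from 10 UMIs.

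**Figure D2:**
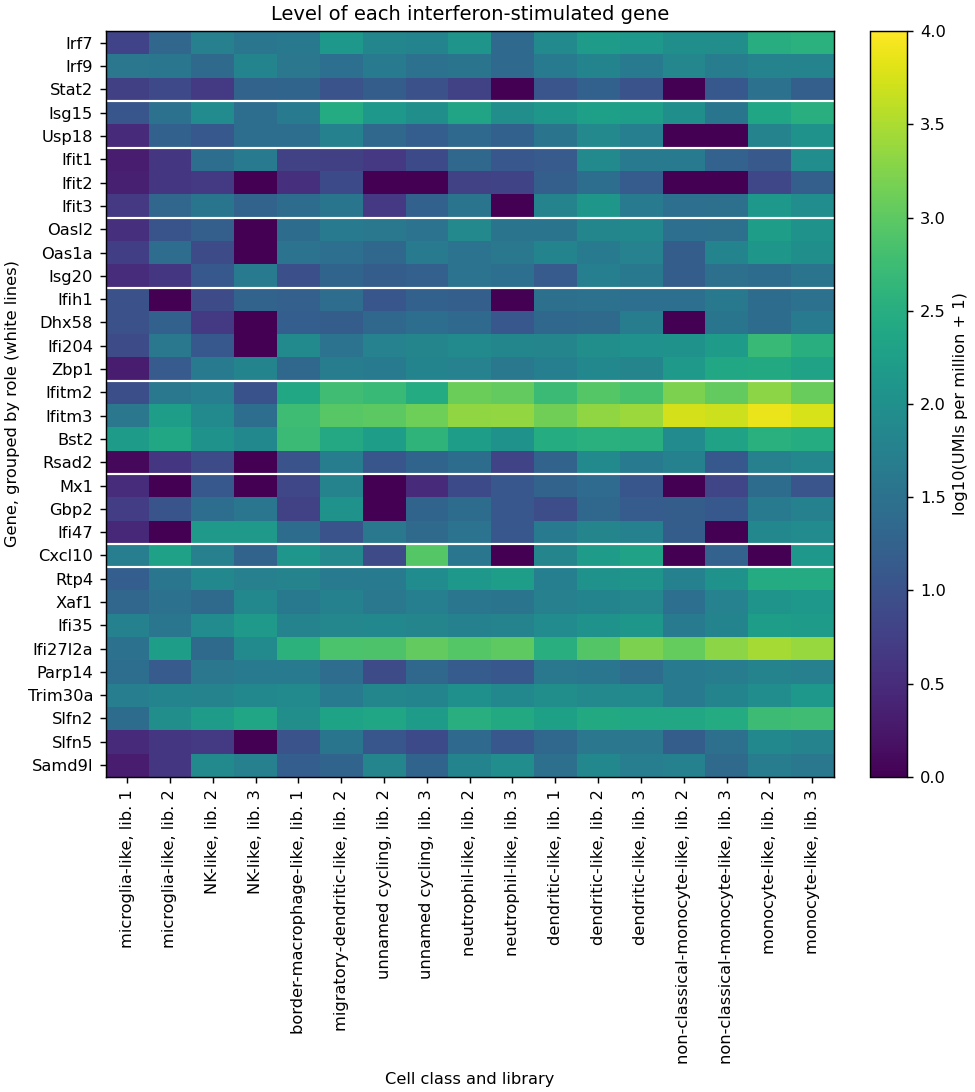
Level of each of the 32 genes as log10(CPM + 1) (colour), by cell class and library (columns) and by gene, grouped by role (white lines). Ifitm3, Ifitm2 and Ifi27l2a are high in the monocyte-like columns (7619, 1994 and 2914 CPM in library 2). They are low in microglia-like cells of library 1 (37.5, 8.11 and 30.2 CPM) and of library 2 (171, 39.5 and 174 CPM).

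Among the membrane proteins, Ifitm3 (chromosome 7, 141009586 to 141010770, GRCm38) had 37.5 CPM (32.3 to 43.3) in microglia-like cells of library 1 and 171 (128 to 224) in those of library 2. Border-macrophage-like cells had 579 CPM of it, dendritic-like cells 1335, 2130.5 and 2458 CPM in libraries 1, 2 and 3, and neutrophil-like cells 2184 and 2234 CPM in libraries 2 and 3. Monocyte-like cells reached 7619 CPM (7201 to 8054) in library 2 and 5687 (5452 to 5929.7) in library 3, and non-classical-monocyte-like cells 5443 and 4881 CPM. The low end was shared by microglia-like and NK-like cells, the latter at 80.3 and 27.1 CPM in libraries 2 and 3. With each cell thinned to 2000 UMIs, Ifitm3 was seen in 34 of 34 and 41 of 41 monocyte-like cells of libraries 2 and 3. It was seen in 31 of 1019 (3.04%, 2.08 to 4.29) microglia-like cells of library 1 and in 12 of 58 (20.7%, 11.2 to 33.4) of library 2. NK-like cells of library 2 showed it in 7 of 67 (10.4%, 4.3 to 20.3), an interval that overlaps the one of microglia-like cells of the same library. Median depths before thinning were 3543 and 4069.5 UMIs in microglia-like cells of libraries 1 and 2 and 3318 UMIs in these NK-like cells.

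Ifitm2 (chromosome 7, 140954837 to 140955987) is close to Ifitm3 in sequence, so reads of the pair may be misassigned. It had 8.11 CPM (5.8 to 11) in microglia-like cells of library 1 and 39.5 (20.4 to 69) in library 2. In libraries 2 and 3 it had 1994 and 1156 CPM in monocyte-like, 1652 and 1096 CPM in non-classical-monocyte-like and 1282 and 1094 CPM in neutrophil-like cells. These values all lay above those of dendritic-like cells (523, 881 and 689.5 CPM in libraries 1, 2 and 3). Bst2 (chromosome 8, 71534255 to 71537456) had a narrower range, from 72.3 CPM in NK-like cells of library 3 to 530.4 CPM (482 to 582) in border-macrophage-like cells. Microglia-like cells had 159.8 CPM (149 to 171) of it in library 1 and 244 (191 to 306) in library 2, and monocyte-like cells of library 2 had 344 CPM (259 to 446). Rsad2 (viperin, an antiviral enzyme) had 1 UMI in microglia-like cells of library 2 and 82 CPM in dendritic-like cells of that library, its highest level.

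Of the factors that carry the signal, Irf7, which amplifies interferon production, ranged from 5.48 CPM (3.61 to 7.97) in microglia-like cells of library 1 through 162 CPM in dendritic-like cells of library 2 to 352 CPM (295 to 416) in monocyte-like cells of library 3. Irf9, the DNA-binding partner of Stat2, ran from 22.3 to 69.4 CPM. Its intervals in microglia-like cells of library 1 (37.3 CPM, 32.1 to 43.1) and monocyte-like cells of library 2 (61.3 CPM, 29.4 to 113) overlapped. The latter level came from 10 UMIs. Dendritic-like cells of library 2, with 112 UMIs, had 62.1 CPM (51.1 to 74.7) of Irf9, above the interval of microglia-like cells of library 1. Stat2 stayed at or under 30.7 CPM in these classes. Microglia-like cells of library 2 had 19.7 CPM (7.25 to 43) of Irf7 and 36.2 (18.1 to 64.8) of Irf9. Irf7 thus differed widely between classes, and Irf9 less.

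In the Isg15 system, Isg15 (chromosome 4, 156199424 to 156200818) had 11 CPM (8.23 to 14.3) in microglia-like cells of library 1, 44.7 (31.5 to 61.6) in border-macrophage-like cells, and 233 (165 to 319.9) and 316 (262 to 377) in monocyte-like cells of libraries 2 and 3. Migratory-dendritic-like cells (284 CPM, 236 to 339.6) and neutrophil-like cells of library 2 (219 CPM, 182 to 259.7) overlapped the monocyte-like cells of library 2. After the thinning used for Ifitm3, Isg15 was seen in 9 of 55 migratory-dendritic-like cells of library 2. A single cell held 16 of their 33 Isg15 UMIs, a spread between cells that the interval does not cover. Usp18, which removes Isg15 from proteins and dampens the receptor, had 2.03 CPM in microglia-like cells of library 1, 75.9 CPM in dendritic-like cells of library 2 and 114 CPM in monocyte-like cells of library 3. It had 0 UMIs in non-classical-monocyte-like cells of libraries 2 and 3, which allows up to 41.7 and 17.3 CPM (3 counts). Microglia-like cells of library 2 had 29.6 CPM (13.5 to 56.2) of Isg15 and 16.5 (5.34 to 38.4) of Usp18.

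The Ifit genes lie together on chromosome 19. Ifit3 (34583531 to 34588731) had 3.65 CPM (2.16 to 5.77) in microglia-like cells of library 1, 129 (113 to 147) in dendritic-like and 135 (84.6 to 204) in monocyte-like cells of library 2. Reads of its near copy Ifit3b may be counted with it. Ifit1 (34640871 to 34650009) had 1.01 CPM in microglia-like cells of library 1, 78.1 CPM (65.8 to 92.1) in dendritic-like cells of library 2 and 90.5 (63 to 126) in monocyte-like cells of library 3, but 2 UMIs in monocyte-like cells of library 2. Ifit2 had the fewest UMIs of the 32 genes, 92, and was highest at 26.6 CPM in dendritic-like cells of library 2. Of the enzymes that act on RNA, Oasl2 had 2.64 CPM in microglia-like cells of library 1 and 166 CPM (109 to 241) in monocyte-like cells of library 2. Oas1a, which makes the signal that activates RNase L and may share reads with Oas1g, had 4.46 and 129 CPM there. The exonuclease Isg20 was highest at 52.6 CPM in dendritic-like cells of library 2. In microglia-like cells of library 2, Ifit3 had 19.7 CPM (7.25 to 43), Oasl2 9.87 (2.04 to 28.9) and Oas1a 26.3 (11.4 to 51.9). Ifit1 had 1 UMI in those cells.

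Among the sensors, Ifi204, from a family of close copies, had 7.3 CPM (5.11 to 10.1) in microglia-like cells of library 1 and 503 (400.1 to 624) in monocyte-like cells of library 2. Zbp1, which senses left-handed nucleic acid and can start cell death, had 1.01 CPM and 269.9 (196 to 362) there. Microglia-like cells of library 2 had 39.5 CPM (20.4 to 69) of Ifi204 and 13.2 (3.59 to 33.7) of Zbp1. Zbp1 was also high in non-classical-monocyte-like cells of library 3 (237 CPM, 169.8 to 321). The helicases Ifih1 and Dhx58 stayed low, with highest levels of 40.4 and 47 CPM. Of the GTPases, Mx1, whose protein is known to be defective in C57BL/6 mice, was highest in migratory-dendritic-like cells of library 2 (61.1 CPM, 39.9 to 89.5). Gbp2 was highest there too (113 CPM, 83.1 to 149), with an interval that overlapped that of monocyte-like cells of library 2 (42.9 CPM, 17.3 to 88.5). Ifi47, known to respond to interferon-gamma, was highest in NK-like cells, at 141 CPM (99.6 to 195) in library 2 and 145 (82.7 to 235) in library 3.

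Of the remaining genes, Ifi27l2a (chromosome 12, 103442167 to 103443680), of the Ifi27 family, had 30.2 CPM (25.6 to 35.5) and 174 (131 to 228) in microglia-like cells of libraries 1 and 2. Monocyte-like cells had 2914 and 2449 CPM of it in libraries 2 and 3. Slfn2, known to keep T cells quiescent, had 24.5 and 92.2 CPM in microglia-like cells of libraries 1 and 2. In libraries 2 and 3, Slfn2 had 164 and 235 CPM in NK-like cells and 558 and 603 CPM in monocyte-like cells. Other members of the Slfn family may share reads with it. The ranges over classes were 36.2 to 166 CPM for Ifi35, 41.7 to 134 CPM for Trim30a and 7.18 to 61.3 CPM for Parp14. Those of Rtp4 (14.8 to 288 CPM), Xaf1 (19.7 to 134 CPM), Slfn5 (0 to 73.6 CPM) and Samd9l (1.01 to 89.3 CPM) complete the set. All of these but Samd9l were highest in monocyte-like cells.

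Classes were then set against microglia-like cells of the same library, counting genes with at least 20 UMIs over both classes and a ratio of 2 or more. In library 1, 18 of the 25 members that could be counted were higher in border-macrophage-like cells and 0 lower, beside 5.89% and 5.32% of all genes counted. With at least 50 UMIs 11 of 17 were higher. The summed level was higher too (4.57-fold, 4.33 to 4.83). All 10 microglia markers also passed in the border-macrophage-like cluster. They summed to 21043 CPM there and to 37854 CPM in microglia-like cells of library 1, and their part was not tested. Ifitm2 had the highest ratio (31-fold, 22 to 44.6), then Zbp1 (20.3-fold, 7.17 to 70.2) and Ifitm3 (15.4-fold, 13 to 18.4), while the interval of Irf9 included 1 (1.0-fold, 0.663 to 1.47). Dendritic-like cells of library 1 had 18 of 25 members higher and 0 lower, beside 8.79% and 34.9%, with a median log2 ratio of -0.55 over all genes counted. There Ifitm2 (64.4-fold, 45.7 to 92.8) and Ifitm3 (35.6-fold, 30 to 42.3) were again far higher, and the intervals of Irf9 (1.11-fold, 0.621 to 1.85) and Cxcl10 (1.3-fold, 0.826 to 1.97) included 1.

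In library 2, monocyte-like cells had 14 of 18 members higher than microglia-like cells and 1 lower, beside 20% and 21.4% of all genes counted. With at least 50 UMIs 7 of 9 were higher, and with at least 1 UMI 26 of 32. The summed level was higher (12.2-fold, 11 to 13.5). A list of 12 inducible members (Ifit1, Ifit2, Ifit3, Isg15, Irf7, Oasl2, Oas1a, Usp18, Rtp4, Rsad2, Cxcl10 and Mx1) was higher by less (3.95-fold, 3.13 to 5.01). Ifitm2 (50.5-fold, 28.5 to 98.7), Ifitm3 (44.5-fold, 33.7 to 59.9) and Zbp1 (20.5-fold, 7.46 to 78.6) led, while the interval of Bst2 included 1 (1.41-fold, 0.979 to 2.02). Cxcl10 lay the other way, with 0 against 58 UMIs. Dendritic-like cells had 26 of 32 members higher and 0 lower, beside 18.8% and 18.2%. They held 1804745 UMIs in all against 303838 in microglia-like cells. Some members therefore passed the minimum of 20 UMIs through the dendritic-like side alone, such as Ifit1 (141 against 1 UMIs). No stricter minimum was tried for this pair, so its count is not set beside those of the other pairs. Ifi47 had 116 UMIs in dendritic-like cells against 0 in microglia-like cells of library 2 (6.51-fold with the 0 set to 3 counts). Migratory-dendritic-like cells had 12 of 22 higher and 1 lower, beside 19.9% and 25.8%. Isg15 (9.59-fold, 4.89 to 21.5) and Gbp2 (11.4-fold, 3.68 to 57.3) were among the highest ratios there. The Isg15 ratio leaned on few cells: after the thinning used for Ifitm3, a single migratory-dendritic-like cell held 16 of 33 Isg15 UMIs.

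Neutrophil-like cells of library 2 had 12 of 20 members higher and 1 lower, beside 15.6% and 22.3%, led by Ifitm2 (32.5-fold, 18.5 to 63.1). Non-classical-monocyte-like cells had 5 of 8 higher and 2 lower (Cxcl10 and Bst2), beside 17% and 25.5%, and the cycling cells 6 of 14 and 1, beside 22.6% and 20.4%. NK-like cells had a summed level within counting error of the microglia-like cells (1.01-fold, 0.878 to 1.17) with another make-up. With each cell named by its own markers the levels differed, at 1367 CPM in NK-like and 2339 CPM in microglia-like cells of library 2. Of 13 members 6 were higher and 4 lower, beside 25.6% and 19.7%. Ifi47 had 37 against 0 UMIs (14.3-fold with the 0 set to 3 counts) and Isg15 was higher (2.84-fold, 1.26 to 7.0). Those lower were Ifi27l2a (7.61-fold, 3.27 to 21.7), Cxcl10 (3.57-fold, 1.97 to 6.93), Bst2 (2.28-fold, 1.46 to 3.65) and Ifitm3 (2.13-fold, 1.26 to 3.73). After the same thinning, Cxcl10 was seen in 3 of 67 NK-like and 4 of 58 microglia-like cells.

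Monocyte-like cells were also set against dendritic-like cells. In library 2, 10 of 32 members were higher in monocyte-like cells, led by Ifi204 (5.31-fold, 4.03 to 6.95), and 4 lower (Isg20, Ifit2, Ifit1 and Cxcl10), beside 14.6% and 19.1%. In library 3 it was 10 of 29 higher, led by Gbp2 (4.23-fold, 1.92 to 10), and 0 lower, beside 9.73% and 10.3%. Ifi204 and Zbp1 were among the 3 highest ratios in both libraries. The cycling cells of library 3 had 1 of 29 members higher than dendritic-like cells, Cxcl10, and 12 lower, beside 14.7% and 4.65%.

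In library 3 the monocyte classes were near each other in Ifitm2 and Ifitm3 and apart in many other members, inducible or not. Non-classical-monocyte-like cells of library 3 had 0 of 26 members higher than monocyte-like cells and 17 lower, beside 9.66% and 13.9% of all genes counted. Isg15 was lower (9.11-fold, 4.07 to 25.3), with 34.6 against 316 CPM, Irf7 was lower (3.81-fold, 2.26 to 6.85), and Usp18 had 0 against 44 UMIs. Members outside the inducible list were lower too, such as Ifi204 (156 against 318 CPM), Slfn2 (288 against 603 CPM) and Ifi35 (63.5 against 160 CPM). Ifitm2 (0.948-fold, 0.796 to 1.13) and Zbp1 (1.19-fold, 0.793 to 1.76) had ratios whose intervals include 1, and that of Ifitm3 (0.858-fold, 0.792 to 0.93) lay just below it. The 12 inducible members summed to 409.6 against 1684 CPM (4.11-fold, 3.21 to 5.33, lower) and the whole set was lower by less (1.37-fold, 1.3 to 1.45). Library 2 gave 0 of 15 members higher and 12 lower, beside 8.26% and 13%, with the inducible members again lower (3.4-fold, 2.32 to 5.16).

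Microglia-like cells of library 2 had more of the set than those of library 1, at 1353 against 591 CPM (2.29-fold, 2.06 to 2.54). Of 21 members that could be counted, 12 were higher and 2 lower, beside 4.06% and 24.4% of all genes counted, whose median log2 ratio was -0.39. With at least 50 UMIs 7 of 13 were higher, and with at least 1 UMI 19 of 32. Intervals lay above 1 for 12 members and below 1 for 0. The highest ratios were those of Oas1a (5.9-fold, 2.27 to 13.8), Ifi27l2a (5.77-fold, 4.14 to 7.95), Ifi204 (5.41-fold, 2.56 to 10.6), Ifit3 (5.41-fold, 1.76 to 14.2) and Ifitm2 (4.87-fold, 2.32 to 9.46). The chemokine Cxcl10 was higher (3.84-fold, 2.83 to 5.13), at 191 against 49.7 CPM, and Bst2 by less (1.52-fold, 1.18 to 1.94). At the other end Irf9 (0.97-fold, 0.476 to 1.78), Ifi35 (0.637-fold, 0.315 to 1.16) and Parp14 (0.488-fold, 0.131 to 1.28) had intervals that include 1. Ifih1 had 0 against 44 UMIs, and its 8.93 CPM in library 1 are under the 9.87 CPM that 0 UMIs allow in library 2, so a difference was not detectable at this depth.

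The microglia-like cells came from 3 clusters. Cluster 0, led by P2ry13 and P2ry12, had 557 CPM (519 to 596) of the set in 459 cells of library 1 and, in 34 cells of library 2, 970.4 CPM (797 to 1171). Cluster 2, led by Il1a, Egr1, Ccl3 and Tnf, had 676 CPM (635 to 719) in 200 cells of library 1 and, in 23 cells of library 2, 1709.8 CPM (1517 to 1921). It held all 58 Cxcl10 UMIs of the microglia-like cells of library 2. Cluster 1 had 7 cells in library 2, and its intervals in both libraries overlapped (709 CPM, 420.0 to 1119.9, against 553 CPM, 521 to 587). Markers of other cells moved with the library as well. In the microglia-like cells of libraries 2 and 1, the 10 neutrophil markers summed to 872 and 211 CPM (1 at 0 in each), the 10 monocyte markers to 42.8 and 19.9 CPM (4 and 1 at 0) and the microglia markers to 21202 and 37854 CPM. Their part in the higher level of the set was not tested.

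**Figure D3:**
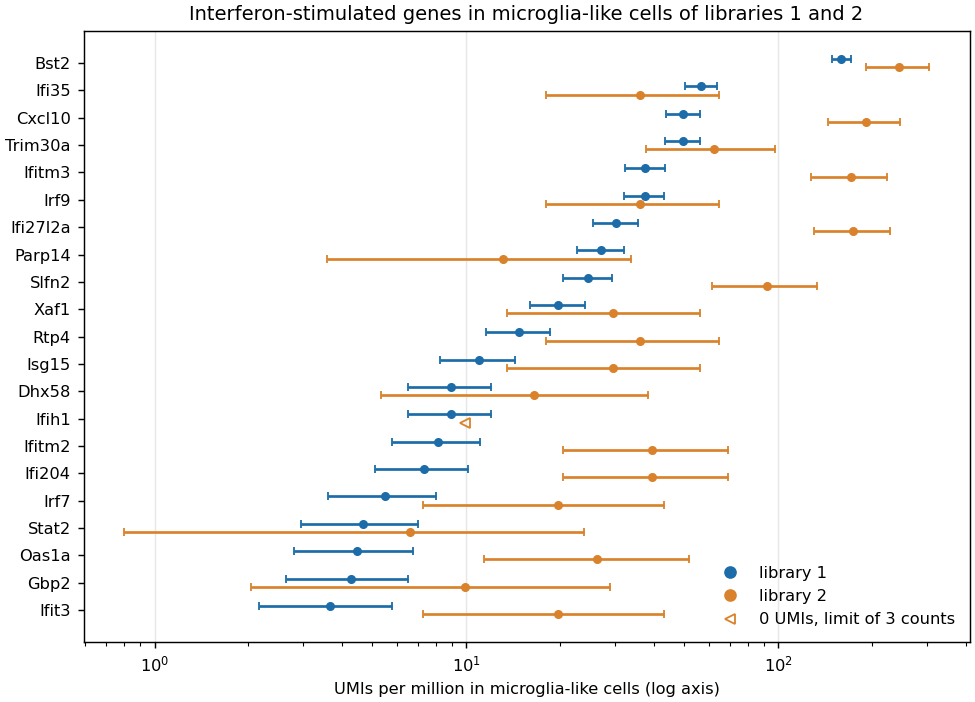
Level of the 21 members with at least 20 UMIs over the microglia-like cells of libraries 1 and 2 (CPM, log axis) with exact Poisson 95% intervals; Ifih1, at 0 UMIs in library 2, is drawn at the limit that 0 UMIs allow. Ifitm3, Ifi27l2a and Cxcl10 of library 2 (171, 174 and 191 CPM) lie right of library 1 (37.5, 30.2 and 49.7 CPM), while Irf9, Ifi35 and Parp14 overlap.

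In the other classes present in more than 1 library, dendritic-like cells of library 2 had 11 of 32 members higher than those of library 1 and 0 lower, beside 6.3% and 7.43%. Ifit1 (6.04-fold, 2.53 to 18.9), Rsad2 (4.53-fold, 2.14 to 11.5) and Isg20 (4.07-fold, 1.68 to 12.8) led. Markers of other cells differed in this pair too: the microglia markers summed to 1058 and 4768 CPM in libraries 2 and 1 (0 of them at 0), and the 10 neutrophil markers to 968 and 38.8 CPM (0 and 6 at 0). Their part was not tested. Dendritic-like cells of library 3 had 1 member higher than library 2, Dhx58 (2.07-fold, 1.28 to 3.33), and 2 lower, Ifit3 (2.83-fold, 1.97 to 4.18) and Mx1 (2.27-fold, 1.06 to 5.58), beside 5.78% and 4.45%. Monocyte-like cells of library 3 had 2 of 27 members higher than those of library 2 and 0 lower, beside 8.37% and 4.55%. These were Cxcl10, at 53 against 0 UMIs, and Ifit1, at 35 against 2 UMIs. After the thinning used for Ifitm3, Cxcl10 was seen in 2 of 41 monocyte-like cells of library 3. A single cell held 11 of its 12 UMIs there. In library 2 Cxcl10 was seen in 0 of 34 such cells. The intervals of these shares (0.596% to 16.5% and 0% to 10.3%) overlapped, so the difference in Cxcl10 UMIs may rest on very few cells. Neutrophil-like cells of library 3 had 0 of 21 higher and 6 lower, beside 3.84% and 17.1%, Irf7 among them (5.16-fold, 1.92 to 19.5). In neutrophil-like cells of libraries 3 and 2 the microglia markers summed to 262 and 2175 CPM (4 and 0 at 0), and in monocyte-like cells the neutrophil markers to 2646 and 773 CPM (0 and 1 at 0), and their part was not tested. Non-classical-monocyte-like cells had 1 of 9 higher, Bst2, and 0 lower, beside 7.69% and 5.05%, and NK-like cells 0 of 9 and 2 (Ifitm3 and Isg15), beside 3.85% and 5.43%. The shares of members in these last pairs were taken over few genes.

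To count the inducible members cell by cell, each cell was thinned to 2000 UMIs, and the number of them with a UMI was taken. Of the microglia-like cells of library 1, 900 of 1019 had none and 2 of 1019 (0.196%, 0.0238 to 0.707) had 3 or more. In library 2 it was 1 of 58 (1.72%, 0.0436 to 9.24). Monocyte-like cells reached 3 or more in 12 of 34 (35.3%, 19.7 to 53.5) in library 2 and 15 of 41 (36.6%, 22.1 to 53.1) in library 3. Dendritic-like cells did so in 3 of 44 (6.82%, 1.43 to 18.7), 27 of 204 (13.2%, 8.91 to 18.7) and 6 of 69 in libraries 1, 2 and 3. The intervals of libraries 1 and 2 overlapped. In the cycling cells of libraries 2 and 3 it was 1 of 22 and 9 of 56, in neutrophil-like cells 7 of 78 and 3 of 29, and in NK-like cells 3 of 67 and 1 of 31. The cell with the most, 11 of 12, was migratory-dendritic-like. Without thinning the shares were 1.1%, 33.8% and 75.6% in microglia-like cells of library 1, dendritic-like cells of library 2 and monocyte-like cells of library 3. Thinned to 1000 UMIs, the last 2 of these were 6.86% and 14.6%. Thinning to 2000 UMIs left out 68 microglia-like cells of library 1 and 0 dendritic-like cells of library 2.

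**Figure D4:**
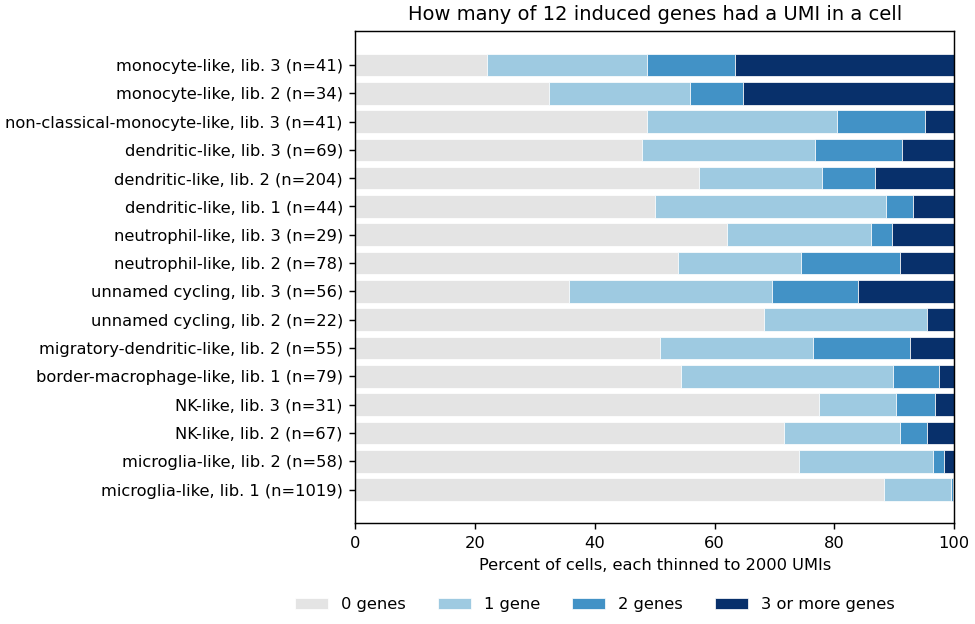
Percent of cells, each thinned to 2000 UMIs, with UMIs of 0, 1, 2 or at least 3 of the 12 inducible members, by class and library. At least 3 were seen in 36.6% of monocyte-like cells of library 3, 13.2% of dendritic-like cells of library 2 and 0.196% of microglia-like cells of library 1.

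The 27 dendritic-like cells of library 2 with 3 or more inducible members had a median depth of 8585 UMIs, against 8097 UMIs in the other 177 cells. Chosen by the inducible members, the 27 cells held 358 of the 451 UMIs of these members after thinning. The 20 members that did not choose them summed to 11519.8 against 4361 CPM (2.64-fold, 2.53 to 2.76, higher). Of these 20, 19 were 2-fold or more higher, beside 7.35% of all genes counted. Ifi204 (12.7-fold, 9.19 to 17.7), Ifi47 (9.83-fold, 6.69 to 14.6) and Isg20 (9.61-fold, 6.27 to 14.9) led, and Ifitm2 was the exception (1.12-fold, 0.97 to 1.29). A list of 60 further interferon-stimulated genes summed to 10288 against 3239.7 CPM in the same cells (3.18-fold, 3.02 to 3.33, higher). The 15 such monocyte-like cells of library 3 differed less from the other 26, with 13295 against 10536 CPM of the same 20 members (1.26-fold, 1.19 to 1.34).

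**Figure D5:**
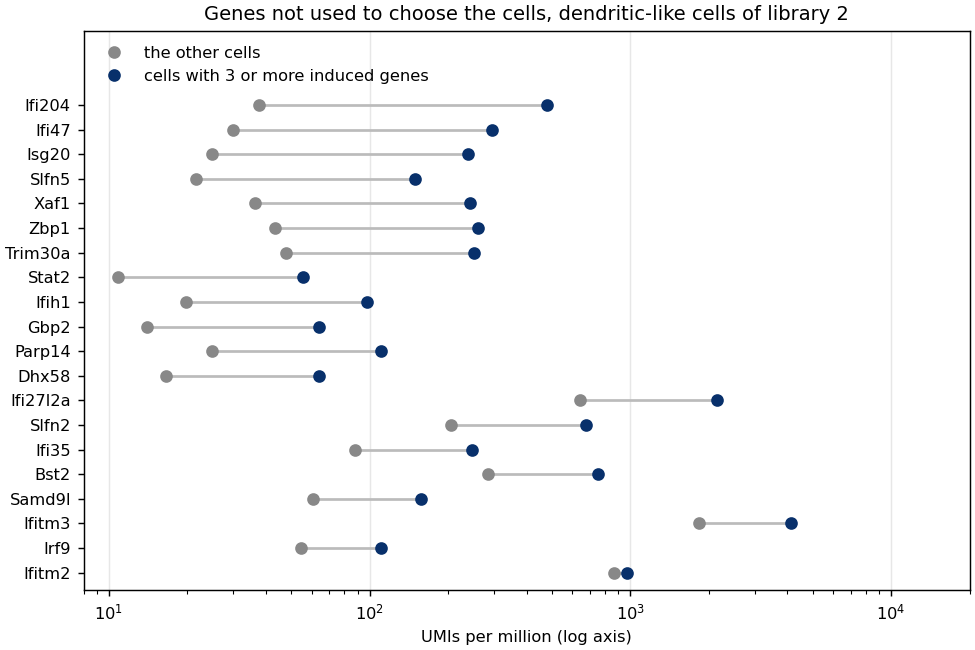
Level (CPM, log axis) of the 20 members not used to choose the cells, in the 27 dendritic-like cells of library 2 with 3 or more inducible members (dark) and in the other 177 (grey). Each dark point but that of Ifitm2 lies 2-fold or more to the right of its grey point.

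The chemokine Cxcl10 (chromosome 5, 92346638 to 92348889) had an order of its own. It was highest in the cycling cells of library 3, at 867 CPM (811 to 926), where 32 of 56 cells held 885 UMIs and the top 5 cells 43.6% of them. The 22 cycling cells of library 2 held 2 UMIs (121-fold, 33.3 to 999). In this pair 4 of 25 members were higher in library 3 and 1 lower, beside 18.9% and 7.34% of all genes counted. The microglia markers of these cells summed to 5196 and 898 CPM in libraries 3 and 2, and their part was not tested. In dendritic-like cells of library 2, 21 of 204 cells held 294 Cxcl10 UMIs, and the top 5 cells had 81.3%. In microglia-like cells of library 1, 73 of 1087 cells held 245 UMIs and the top 5 had 22.4%. These top 5 are a smaller part of the microglia-like class, so the 2 percentages are not compared. After thinning, Cxcl10 was seen in 13 of 204 (6.37%, 3.44 to 10.7) of these dendritic-like and 46 of 1019 (4.51%, 3.32 to 5.98) of these microglia-like cells, with overlapping intervals.

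The pathway that acts on these genes was measured from a list of 37 genes. Of its 9 ligands, 7 had 0 UMIs in all cells. Ifng, the interferon of NK and T cells, had 84 UMIs, with 237 CPM (182 to 304) and 136 (75.9 to 224) in NK-like cells of libraries 2 and 3 and 0 UMIs in the other classes of at least 20 cells. Ifnb1 had 5 UMIs in all. The receptors with the most UMIs were not highest in monocyte-like cells. Ifngr1, the chain that binds interferon-gamma, had 1099.6 CPM in microglia-like cells of library 1 and 662 CPM in monocyte-like cells of library 2. Il10rb, shared by interferon-lambda and interleukin receptors, had 267 and 67.5 CPM in the same classes. Among signalling genes, Jak1 had 104 and 85.9 CPM there, and Stat3, best known from interleukin signalling, 58.8 and 85.9 CPM. Among regulators, Irf8, a lineage factor of microglia, had 715 and 209 CPM, and Socs3, a feedback inhibitor, 449.7 and 79.7 CPM. Among sensors and adaptors, Tmem173 (Sting) had 225 and 55.2 CPM, and Myd88, the adaptor of most Toll-like receptors, 53.8 and 117 CPM. These pairs set library 1 against library 2, so class and library cannot be told apart in them. Within microglia-like cells, library 2 against library 1 had 0 of 26 pathway genes 2-fold or more higher and 6 lower. The shares of all genes counted in that comparison were 4.06% and 24.4%. Within library 2, of 16 pathway genes that could be counted, 3 were 2-fold or more higher in monocyte-like than in microglia-like cells and 3 lower, beside 20% and 21.4% of all genes counted, shares near those of the pathway genes.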

How the data were processed

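Cells were profiled with 10x Genomics 3′ v2 reagents, per the labels' protocols, which speak of 4 samples prepared together, 3 of them described here. The authors deposited UMI counts per gene and cell as 1 matrix, and Cell Ranger 2.0.1 and the mm10 build are listed per the submitters' processing notes. How barcodes were called is not given in the sources used here. Of 2149 barcodes, those with at least 500 genes and at most 10% mitochondrial counts were kept (5 removed). Scrublet marked 9 of 2144 (0.42%), a low yield, so some doublets probably stayed in.

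From the counts, scaled to 10000 for each cell and logged, 2000 variable genes (members and other interferon genes left out), 30 components and 15 neighbours gave 15 Leiden clusters (resolution 0.5; scanpy 1.11.5, igraph 0.11.9). A marker passed when it was in a fraction of at least 0.3 of a cluster's cells at 2 times its median over clusters or more. Names needed 3 passing markers (113 of 116 listed were in the files) and went to the class with most markers among the 10 leading genes. After the clusters were seen, 1 condition was added: a cluster that no marker led and in which more than 1 class passed stayed unnamed. The 4 clusters under 20 cells (40 cells) have no class.

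Levels have exact Poisson intervals, shares Clopper-Pearson intervals and ratios exact conditional intervals (95%; scipy 1.17.1). Described are up to 3 members of each role by UMIs, up to 5 with the highest and lowest ratio of each comparison, and up to 2 pathway genes of each role. Other members named with values (such as Rsad2, and Bst2 or Cxcl10 between libraries) were singled out after their values were seen. Of 66 further interferon-stimulated genes listed, 60 were in the files. Members and lists were chosen with earlier results of these data known. Alternatives changed the clustering, naming, filters, thinning and UMI minimum.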

Additional observations from a re-analysis of the deposited data

Results flagged for a closer look

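The 14 cells that the filters and the doublet caller removed enter no comparison, yet they held 777 UMIs of the 32 interferon-stimulated genes, at 5805 CPM (5404 to 6227). They are given because no comparison uses these cells. The level lay between the 5592 and 6823 CPM of all cells used of libraries 2 and 3, which gave all but 2 of these cells.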

How the results depend on the processing

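The summed levels and counts below moved by more than their intervals allow or by over 1.5 times. The cause of these moves was not tested unless the setting itself changes what is summed or counted. Levels of non-classical-monocyte-like cells were not recomputed, so whether monocyte-like cells stayed highest under each setting was not checked. In library 2, a finer clustering gave 12282 CPM in monocyte-like and 6144 CPM in dendritic-like cells, and 22 members higher in monocyte-like than in microglia-like cells. Keeping the interferon genes in the clustering gave 8531 and 6575 CPM in the same classes. Naming each cell by its own markers gave 13774 and 4852 CPM, and 928 and 2339 CPM in microglia-like cells of libraries 1 and 2. At most 5% mitochondrial counts gave 13753 and 6297 CPM, and at least 1000 genes 622 CPM in microglia-like cells of library 1. Dendritic-like cells of library 2 had 6575 CPM with doublets kept and 6675 CPM as a mean over cells. Without Ifitm3 the levels were 554 and 1182 CPM in microglia-like cells of libraries 1 and 2, and 8839 and 4302 CPM in monocyte-like and dendritic-like cells of library 2. The share of dendritic-like cells of library 2 with 3 or more inducible members was 6.86% at 1000 UMIs and 33.8% with no thinning, and with 2 or more it was 22.1%. That of monocyte-like cells of library 3 was 14.6% and 75.6%, and microglia-like cells of library 1 had 1.1% with no thinning. With at least 50 UMIs, 7 members were higher in monocyte-like and, in library 1, 11 in border-macrophage-like than in microglia-like cells, and 7 in microglia-like cells of library 2 than of library 1. With at least 1 UMI the first and last of these counts were 26 and 19. Of 73 alternative values for these levels, shares and counts 44 stayed within these bounds, and of 47 for other classes and single members 31 did. In an alternative chosen after seeing the data, the 500 of 1087 microglia-like cells of library 1 with no UMI of a monocyte or neutrophil marker had 571 CPM. Only 2 of 64 such cells of library 2 were left, too few for a value. No paired analysis was possible because each group has 1 library and no barcode number is tied to a group.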

Other observations

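Of 60 further interferon-stimulated genes, those with the most UMIs had orders of their own. Ly6e, a membrane protein that alters viral entry, had 931 and 1168 CPM in microglia-like cells of libraries 1 and 2 and was highest in non-classical-monocyte-like cells of library 3 (2354 CPM). Psmb8 and Psmb9, subunits of the immunoproteasome, were highest in migratory-dendritic-like cells of library 2 (1358 and 406 CPM), against 253 and 92.5 CPM in microglia-like cells of library 1. Shisa5 was highest in NK-like cells (1624 and 1709 CPM in libraries 2 and 3), against 209.9 CPM in microglia-like cells of library 1. Ifitm6, of the Ifitm family, had 2 UMIs in microglia-like cells of library 1 and 2384 CPM in neutrophil-like cells of library 3.

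Some classes had too few cells in a library to stand beside the others. The 7 monocyte-like cells of library 1 had 15636 CPM of the 32 members, and the 2 microglia-like cells of library 3 had 19 UMIs of them, or 908 CPM (547 to 1418). In library 1, the 2 microglia-like cells with 3 or more inducible members had 3737 CPM of the other 20 members, against 480.2 CPM in the rest of the thinned cells.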
